A study of Drosophila melanogaster with 8 samples.

Results

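Heads of Drosophila melanogaster flies of the genotype Actin-gal4/+ were examined as a baseline transcriptome, in the 3 control libraries among the 8 libraries of the series. Gal4 is a yeast transcription factor, here made from the Actin promoter, which is active in most tissues. No UAS insertion is named for these flies, which leaves the driver without a stated target. The flies were kept at 25 °C with 12 hours of light and 12 hours of dark, were given 3 further days after CO2 anaesthesia and were frozen on dry ice, per the labels' protocols. The remaining libraries, 2 of row_RNAi1 and 3 of row_RNAi2, are not analysed here, and the sources used here give neither sex nor age. Nothing in the labels says whether the 3 control libraries were separate collections of flies, so the spread between them may be technical.

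A fly head holds the compound eyes, the brain, fat body that lines the head capsule, the muscles of the mouthparts and neck, the antennae, blood cells and cuticle. Fly photoreceptors detect light with opsins, which act through a G protein and phospholipase C to open TRP channels and are switched off by arrestins. The fat body is the counterpart of liver and adipose tissue, and it secretes storage, yolk, lipid-carrier and immune proteins into the blood. Lists of genes known from each tissue were used to describe the heads, with 600 symbols listed, 28 of them not found in the table and 27 found under an older symbol.

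Levels are read counts scaled to a common library total (CPM). The libraries are named control 1, control 2 and control 3 after their replicate numbers and held 7015874, 9437287 and 8974606 counts. Of 13781 symbols, 8826 (64.0%) reached 1 CPM in all 3 libraries and 1642 had no count in any. The range of levels was wide, since 175 symbols of 1000 CPM or more took 57.9% to 60.5% of the counts, while 5034 symbols lay between 10 and 100 CPM. The labels name a 3′ protocol, in which reads are expected to depend little on transcript length, so levels of different genes were first compared as CPM. CPM per kilobase of coding length is given beside comparisons between tissues.

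The label of the samples was checked against markers of organs outside the head. Of 24 midgut digestive enzymes listed, 16 were in the table, and 0 of these were at 1 CPM in all 3 libraries. Together they came to 0.949, 1.61 and 1.27 CPM in controls 1, 2 and 3. This list covers digestive enzymes of the midgut only. The 14 testis and accessory gland genes summed to 1.76, 1.07 and 0.579 CPM, again with 0 members detected. Of 17 ovary and eggshell genes, 1 was detected, grk, a ligand of the epidermal growth factor receptor, at 10.3, 13.3 and 11.4 CPM. Of 6 Malpighian tubule genes, 3 were detected, the potassium channel genes Irk2, Irk3 and Irk1, and the list summed to 113, 114.8 and 121 CPM, most of it from Irk2 at a mean of 96.6 CPM. Uro, urate oxidase, ZnT35C and Vha16-5 of the same list were not detected. The eye and brain lists had 55 of 56 and 91 of 92 members detected. In bulk tissue, fewer cells of a type and less RNA per cell cannot be told apart, which holds for every level given here.

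The most abundant transcripts came from the fat body, the eye, the ribosome and secreted peptides. Yp1, Yp2 and Yp3, which encode the yolk proteins carried in female blood, ranked 1 to 3 with means of 40476, 37341 and 30808 CPM. Nplp2, a neuropeptide-like precursor, followed at 14974 CPM. The alcohol dehydrogenase gene Adh and its neighbour Adhr stood at 11736 CPM each, but they had the same counts in controls 2 and 3 and differed by 2 counts in control 1, so their reads cannot be assigned to either gene. Among the 25 highest symbols were 3 genes of vision, Arr2 at 10086 CPM, ninaE at 9588 CPM and Arr1 at 4291 CPM. The corneal protein gene retinin ranked 13 at 6336 CPM, the metallothionein gene MtnA ranked 15 at 6134 CPM, and the immune-induced peptide gene IM4 (now Dso1) ranked 14 at 6201 CPM. A pair of long noncoding RNAs, MRE16 and CR40469, stood at 9688 and 6759 CPM, and CG17108, which has no name beyond its number, stood at 5423 CPM. The elongation factor gene Ef1alpha48D (now eEF1alpha1) had 8161 CPM, and RpL41, RpL5 and RpS26 led the ribosomal protein genes at 7263, 5993 and 5636 CPM.

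The 5 tissue lists differed in level. The 52 fat body genes summed to 102294, 132712 and 140030.0 CPM in controls 1, 2 and 3, or 12.4% ± 1.48 of all counts (SD, n = 3). The 56 eye genes summed to 44703, 45046 and 44081 CPM, or 4.46% ± 0.23 of counts (SD, n = 3). The 56 antennal genes came to 9645, 9548 and 10539 CPM and the 41 muscle genes to 9430.0, 10139.7 and 9564 CPM. The 92 brain genes had the lowest sum of the 5 lists, with 5459.6, 5112 and 5064 CPM, or 0.522% ± 0.0458 of counts (SD, n = 3). The sums rested on few genes in the fat body, where the 3 yolk protein genes supplied 86431, 116728 and 122718 CPM. Abundant members weighed on other sums too. Odorant-binding proteins supplied 9620, 9522 and 10511 CPM of the antennal sums, and Arr2 and ninaE of the eye list had means of 10086 and 9588 CPM.

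Medians over members, which a few abundant genes cannot set, gave another order. The median fat body gene stood at 208 CPM, the eye gene at 88.9 CPM, the muscle gene at 80.5 CPM, the brain gene at 31.8 CPM and the antennal gene at 2.87 CPM, against 6.99 CPM for all 13781 symbols. The fat body list was first and the brain and antennal lists last in each library. Eye and muscle were not separated, because muscle stood above eye in control 2 (94.1 against 90.1 CPM) and below it in controls 1 and 3. Per kilobase of coding length the medians were 116 in fat body, 88.6 in muscle, 49.3 in eye, 11.1 in brain and 1.76 CPM per kilobase in antenna, with muscle above eye. Lists of well-known tissue genes hold abundant genes by choice, so their place above the median of all symbols describes the lists.

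**Figure D1:**
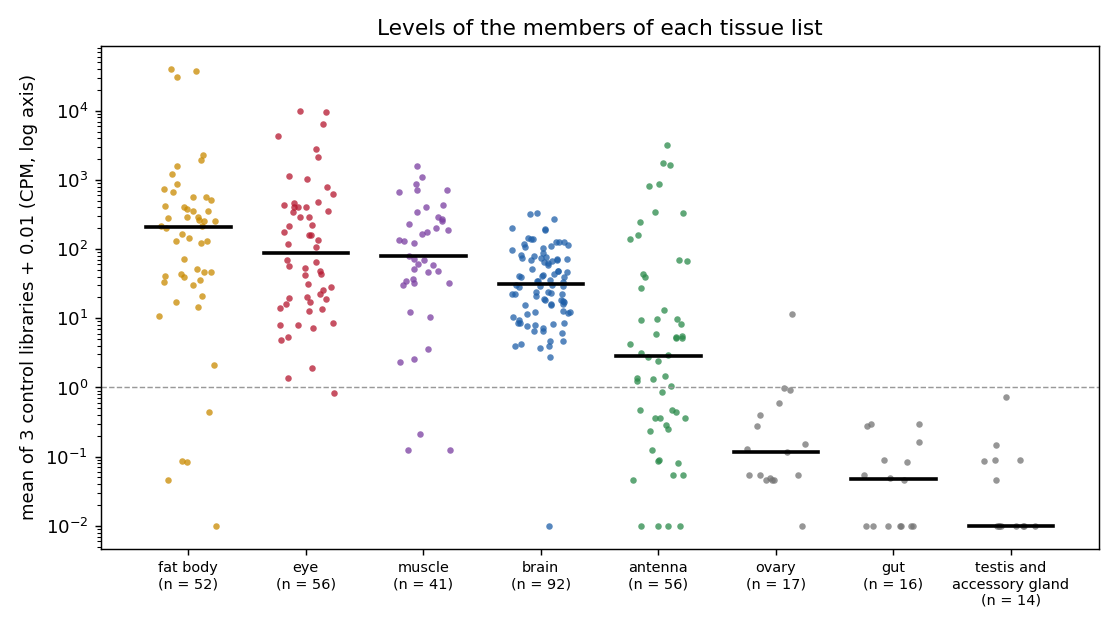
Each point is a listed gene, with its mean over the 3 control libraries on a log axis in CPM, after adding 0.01; black bars are list medians and the dashed line is 1 CPM. Fat body members centre on 208 CPM and brain members on 31.8 CPM, antennal members are spread from 3235 CPM for Obp99c to 0, and the gut and testis points all lie under the line.

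Each of the 7 opsin genes was detected, and their order was the same in all 3 libraries with no overlap between neighbours. The gene ninaE, which encodes Rh1, the opsin of the outer photoreceptors R1 to R6, had 9538, 9725 and 9502 CPM in controls 1, 2 and 3. The ultraviolet opsin genes of the R7 cells followed, Rh3 with 595, 625 and 634 CPM and Rh4 with 481, 472 and 471 CPM. Of the opsins of the R8 cells, Rh6 had 219, 223 and 209 CPM and Rh5 had 153, 162 and 167 CPM. Every library thus gave the outer opsin far above the 4 inner ones, and ninaE was 6.52 ± 0.0925 times the sum of Rh3, Rh4, Rh5 and Rh6 (SD, n = 3). Rh2, the opsin of the ocelli, the simple eyes on top of the head, had 134, 133 and 136 CPM. Rh7 was lowest at 7.73, 9.11 and 7.3 CPM. The coding lengths of ninaE and the Rh2 to Rh6 genes are alike, and per kilobase ninaE stood at 8568, Rh3 at 538, Rh4 at 418, Rh6 at 199.7, Rh5 at 140.4, Rh2 at 117 and Rh7 at 5.55 CPM.

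Within the inner photoreceptors, Rh3 was 1.30 ± 0.0575 times Rh4 and Rh6 was 1.35 ± 0.093 times Rh5 (SD, n = 3 each). The summed level of Rh3 and Rh5, the pair found together in pale ommatidia, was 1.13 ± 0.0552 times that of Rh4 and Rh6, the pair of yellow ommatidia. The ratio was 1.07, 1.13 and 1.18 in controls 1, 2 and 3, above 1 in each. It rests on the more abundant Rh3 and Rh4, since Rh5 alone was below Rh6. The numbers of pale and yellow ommatidia were not tested.

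Of the genes that end the light response, the major arrestin stood level with the main opsin. Arr2 had 9999.8, 9964 and 10294 CPM and was 1.05 ± 0.0296 times ninaE, above it in all 3 libraries, although per kilobase of coding length Arr2 stood at 8384 and ninaE at 8568 CPM. Arr1, the second arrestin, had 4268, 4472 and 4132 CPM, and ninaC, a myosin-kinase of the photoreceptor cell body and rhabdomere, had 1059, 1032 and 999 CPM. The opsin phosphatase gene rdgC was far lower at a mean of 57.7 CPM.

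Members of the phototransduction cascade spanned a wide range. Of the visual G protein subunits, Ggamma30A had 2133, 2158 and 2078 CPM, Gbeta76C had 458, 472 and 449 CPM, and Galphaq had 351, 356 and 348 CPM. The gamma transcript was thus 4.62 ± 0.0465 times the beta transcript (SD, n = 3), and the 3 subunits did not overlap. Per kilobase of coding length Ggamma30A stood at 2973 and Gbeta76C at 443 CPM, the same order. The scaffold inaD, the protein kinase C inaC and the phospholipase C norpA, which are held in a complex at the membrane, lay close together with means of 346, 295 and 292 CPM. Of the light-gated channels, trp had 1133, 1130.1 and 1138 CPM and trpl had 769, 773 and 796 CPM, a ratio of 1.45 ± 0.0227 (SD, n = 3), and their levels per kilobase were 296 and 231 CPM. The channel-associated gene inaF-B and nrv3, a sodium pump subunit, had 404 and 431 CPM, and the sodium-calcium exchanger gene Calx had 41.8 CPM.

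Opsin needs a chromophore made from carotenoids. Pdh, a retinal pigment cell dehydrogenase used in chromophore turnover, had 2805, 2852 and 2724 CPM, above rtp at 406 CPM and ninaA, the chaperone of Rh1, at 162 CPM. The carotenoid oxygenase ninaB had 64.6 CPM and the scavenger receptor santa-maria had 108 CPM, whereas ninaD, a scavenger receptor that acts in the gut, had 5.42 CPM. Structural genes of the rhabdomere and its surroundings included chp at 406 CPM and Cpn, a calcium-binding protein, at 175 CPM. The surface of the eye was dominated by retinin, with 6523, 6324 and 6161 CPM, while the crystallin gene Crys had 14.8, 16.5 and 11.0 CPM. Eye transcription factors were low, led by toy at 28.8, eya at 19.7 and Pph13 at 19.2 CPM, and ss, which selects the yellow R7 fate during development, was the only eye gene short of 1 CPM in a library, at 0.542, 0.75 and 1.16 CPM. Eye genes varied little between libraries, with a median coefficient of variation (CV, SD over mean) of 4.15% over the 47 members of 10 CPM or more, against 7.06% over all 6086 symbols of that level. The CV depends on level, and the difference was not tested at matched levels.

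**Figure D2:**
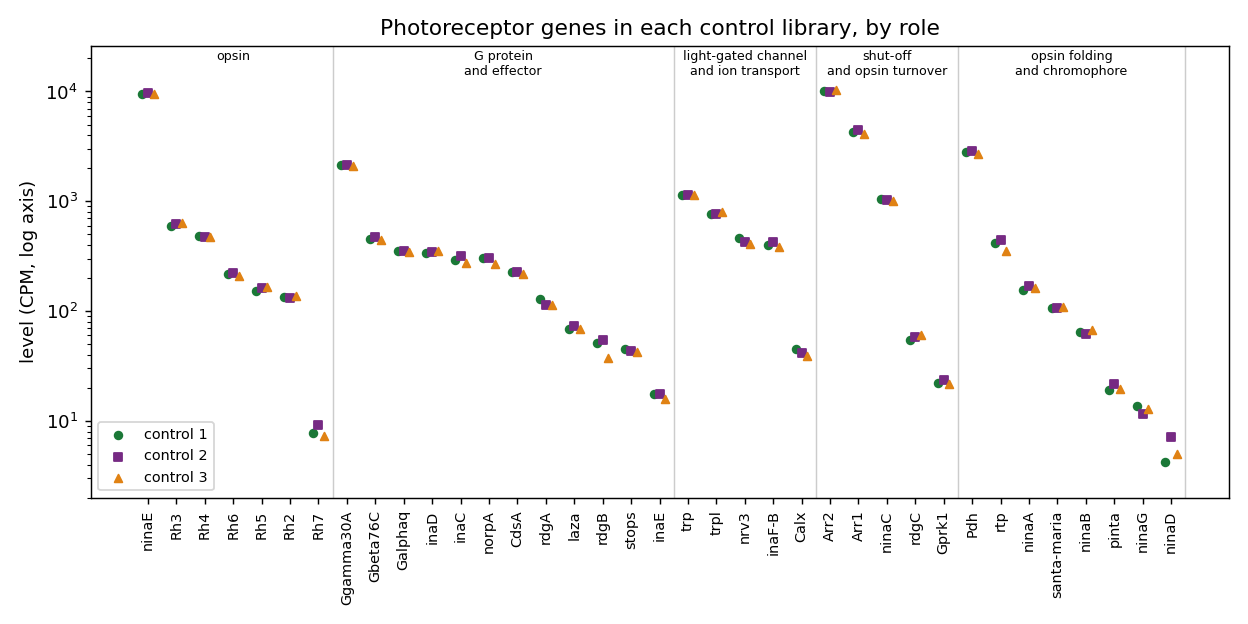
Levels in CPM on a log axis of photoreceptor genes, grouped by role and ordered by mean, with a marker for each control library. The 3 markers of a gene nearly coincide for the opsins, ninaE lies near 9588 CPM and Rh7 near 8.04 CPM, and Arr2 is level with ninaE.

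Eye pigment genes made a smaller set, with 22 of 23 members detected. Enzymes of pteridine and ommochrome synthesis reached 669.7 CPM for Hn, phenylalanine hydroxylase, which also serves metabolism in the fat body, and 211 CPM for cl. The kynurenine pathway showed an unequal pair, as v, tryptophan dioxygenase, had 133, 136 and 134 CPM, but cn, the hydroxylase downstream of it, had 2, 0 and 0 counts. A count of 3 would be 0.407, 0.321 and 0.348 CPM in controls 1, 2 and 3, so cn lay under that limit in each. The pigment transporters were low, bw at 29.3, 30.2 and 27.7 CPM, st at 12.6, 13.1 and 14.4 CPM and w at 8.27, 6 and 6.49 CPM. Rab32, a small GTPase of pigment granules, led the trafficking genes at 213 CPM.

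Nearly all neuronal genes were present at moderate levels. The highest were genes of vesicle release and the axonal skeleton. The release clamp cpx, complexin, had 352, 355 and 288 CPM, and Ank2, a giant ankyrin, had 329, 325 and 300.2 CPM. The synaptobrevin gene nSyb had 284, 269 and 277 CPM, Snap25 had 192 CPM and the calcium sensor Syt1 had 143 CPM. The active-zone gene brp, at 29.0 CPM, and the pan-neuronal RNA-binding gene elav, at 34.1 CPM, were among the lower ones, and the elav relatives Rbp9 and fne had 202 and 126 CPM. Of 91 detected brain genes, 73 reached 10 CPM.

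Excitability genes were led by the hyperpolarisation-activated channel Ih at 192, 189.8 and 199 CPM. The potassium channel Sh followed with 126, 109 and 103 CPM and the sodium channel para with 108, 96.3 and 88.3 CPM. In Sh and para control 1 was the highest, and the same was true of 54 of the 91 brain genes of 1 CPM or more. Among all 9155 symbols of that level, 3060 were highest in control 1. The median log2 difference of control 1 from the mean of the other libraries was 0.11 over these brain genes. With DESeq2 size factors 55 of the 91 were highest in control 1.

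Synthesis and vesicle genes of the transmitter systems differed in level, and those of GABA lay far apart. The glutamate transporter VGlut had 109, 109.8 and 105 CPM and the GABA-synthesis gene Gad1 had 117, 95.5 and 103 CPM, and these overlapped. The acetylcholine pair was lower, with 77.6, 71.1 and 72.6 CPM for the vesicular transporter VAChT and 82.6, 66.4 and 69.1 CPM for the synthesis enzyme ChAT. VGlut was 1.47 ± 0.07 times VAChT and Gad1 was 1.45 ± 0.0409 times ChAT (SD, n = 3 each). The vesicular transporter of GABA, VGAT, had a mean of 17.8 CPM, below both acetylcholine genes. These genes therefore do not rank GABA against acetylcholine. Per kilobase of coding length the order differed, with Gad1 at 68.7, VGlut at 57.0, VAChT at 42.5, ChAT at 33.6 and VGAT at 10.8 CPM per kilobase. The nicotinic receptor subunit nAChRbeta1 had 77.2 CPM and the GABA receptor subunit Rdl 72.9 CPM, the highest receptor subunits of their lists.

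Monoamine genes ran from the vesicular transporter Vmat at 79.2 CPM through Ddc at 52.4 CPM, which acts in dopamine and serotonin synthesis and in the cuticle, to the dopamine enzyme ple at 44.3 CPM. Hdc, which makes histamine, the transmitter of photoreceptors, had 31.3, 29.0 and 31.4 CPM. Of the listed synthesis enzymes, those of octopamine were lowest, Tbh at 6.47 CPM and Tdc2 at 2.58, 2.68 and 3.13 CPM. Genes of learning and plasticity were led by Arc1, a capsid-forming gene that responds to activity, at 147, 117 and 157 CPM, with dnc at 110 CPM and CaMKII at 63.9 CPM. The memory peptide gene amn had 0 counts in all 3 libraries, the only brain gene not detected.

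The peptide precursors Nplp2 and Nplp3 stood far above the transmitter genes. The median of the 32 precursors was 31.1 CPM, close to the 31.8 CPM of the brain list. Nplp2 had 14244, 15377 and 15300.3 CPM and Nplp3 had 2863, 2723 and 2682 CPM. These 2 genes supplied most of the summed 19922 ± 552 CPM of the neuropeptide list (SD, n = 3). Of the 32 precursors, 29 were detected. Ilp2, an insulin-like peptide of a small cluster of brain cells, had 157, 162 and 174 CPM, against 41.4 CPM for Ilp3 and 38.0 CPM for Ilp5 from the same cells. The clock-cell peptide Pdf had 72.7, 75.3 and 67.5 CPM. The 3 precursors below the limit were Akh, the fly counterpart of glucagon, with 1, 8 and 34 counts, CCAP and Eh. The corpora cardiaca, the gland that makes Akh, lie against the anterior gut. Enzymes that mature and amidate peptides were steadily present, with Phm, the amidating hydroxylase, at 222, 229.7 and 228 CPM and the convertase chaperone 7B2 at 309.5, 291 and 321 CPM.

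**Figure D3:**
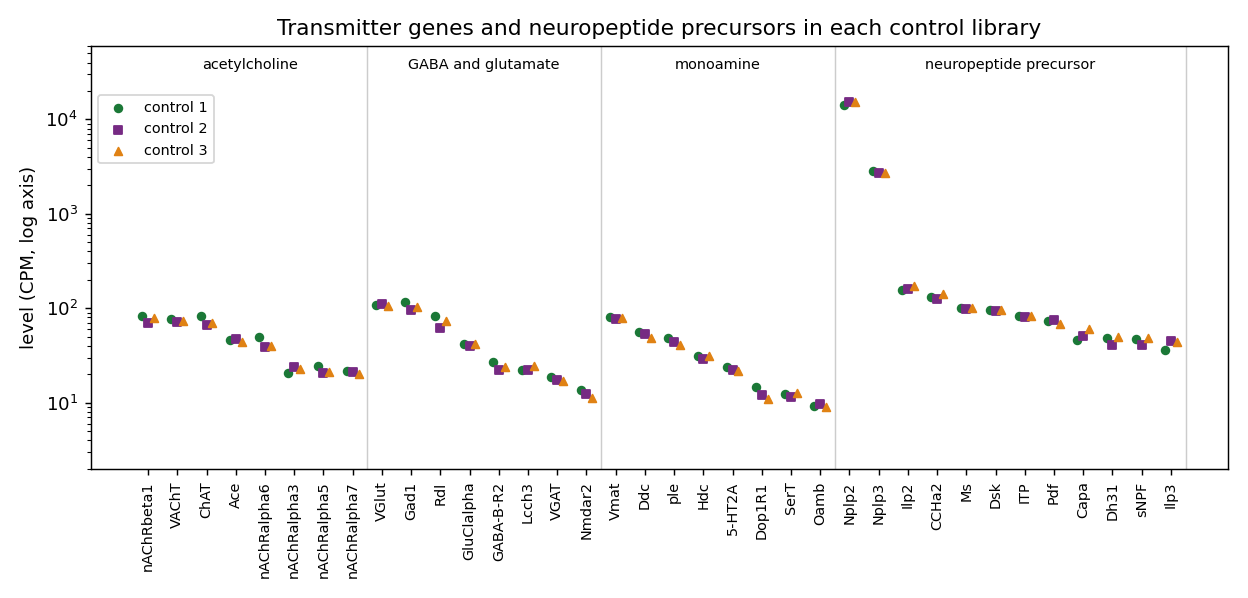
Levels in CPM on a log axis of the 8 highest genes of each transmitter list and the 12 highest neuropeptide precursors, with a marker for each control library. Nplp2 at 14974 CPM and Nplp3 at 2756 CPM stand far above VGlut at 108 CPM, and most markers of a gene lie close together.

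Glial genes were all detected, 20 of 20, with a median of 56.0 CPM. Gs2, the glutamine synthetase of glia, had 805, 811 and 841 CPM, the sodium pump subunit nrv2 had 298, 266 and 269 CPM, and the trehalose transporter Tret1-1 had 244, 253 and 255 CPM. The pan-glial transcription factor repo was low at 22.4, 25.2 and 20.9 CPM. Clock genes were also complete, 11 of 11, from Pdp1 at 170.3 CPM and the photoreceptor cry at 126 CPM to Clk at 8.76 CPM. The labels give no hour of collection, so the cycling members cannot be placed in the day.

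Fat body genes were led by the yolk proteins. Yp1 had 32245, 43211 and 45973 CPM, Yp2 had 29819.9, 39971 and 42233 CPM, and Yp3 had 24366, 33546 and 34512 CPM. All 3 were lowest in control 1, and each was 1.42 to 1.43 times higher in the highest library than in the lowest. The ratio of Yp1 to Yp3 stayed at 1.31 ± 0.0233 (SD, n = 3). The product fit, a female-enriched peptide of the fat body that regulates feeding, had 256, 339 and 476 CPM. The noncoding RNA roX1, which coats the male X chromosome, went the other way with 706, 554 and 432 CPM, highest in control 1. Summed yolk protein CPM over roX1 was 122, 211 and 284 in controls 1, 2 and 3. Whether the libraries held unequal numbers of males and females was not tested.

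Other secreted proteins of the fat body varied in their own ways. The iron carrier Tsf1, transferrin, had 2469, 1968 and 2359.9 CPM and the lipid carrier Rfabg (now apolpp) had 1905, 2045 and 1964 CPM. The storage protein genes were high in control 3, with 925, 956 and 1747 CPM for Lsp2 and 195, 215 and 371 CPM for Lsp1beta. The larval storage proteins Lsp1alpha and Lsp1gamma and the larval fat body genes Fbp1 and Fbp2 were not detected, with the highest mean 0.432 CPM for Lsp1alpha. The leptin-like cytokine upd2, a fasting and feeding signal, had 0 counts.

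Enzymes of lipid and sugar handling were steadier than the secreted proteins. The desaturase Desat1 had 1597, 1693 and 1465 CPM, FASN1, fatty acid synthase, had 867, 923 and 867 CPM, and AcCoAS had 514, 537 and 505 CPM. Tps1, which makes trehalose, the blood sugar of flies, had 736, 752 and 763 CPM, and Pgm had 558, 540.0 and 599.7 CPM. Of signalling genes, Thor, the translation inhibitor 4E-BP, had 254 CPM, the peptide gene CCHa2, which is also in the neuropeptide list, had 133 CPM, and the insulin-like peptide Ilp6 had 35.6 CPM. The median CV was 6.90% over the 46 fat body genes of 10 CPM or more.

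Muscle genes had 38 of 41 members detected, and of 4 genes listed for flight muscle 3 were under 5 CPM. Argk, arginine kinase, which buffers ATP, had 1533, 1636 and 1566 CPM, Mlc2 had 1078, 1159 and 1079 CPM, the calcium pump SERCA had 838, 919.5 and 844 CPM, and Mhc, the single muscle myosin heavy chain gene, had 635, 693 and 694 CPM. Of the actins, Act57B had 419, 451 and 448 CPM and Act87E had 85.4, 83.7 and 72.4 CPM, although near-identical actin genes may share reads. The flight muscle actin Act88F had 4.2, 4.93 and 1.74 CPM. The flight muscle genes fln and TpnC4 had 0, 0 and 3 counts and 2, 1 and 2 counts. The third muscle gene not detected was Zasp67, a Z-disc gene, with 0, 0 and 3 counts. Act79B, an actin of tubular muscle, was lowest in control 3, at 138, 159.8 and 71.8 CPM. TpnC41C, a troponin C gene and the fourth on the flight muscle list, had 47.5, 54.9 and 38.6 CPM, and it and Act88F were lowest in control 3 too.

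Antennal genes split by kind. Odorant-binding proteins, small secreted carriers of which several are also made outside the antenna, were abundant, with 23 of 30 listed members detected and a median of 20.3 CPM. Obp99c had 3082, 3256 and 3366 CPM, Obp44a had 1834, 1633 and 1748 CPM, and Obp19d had 1673, 1537 and 1729 CPM. Receptors were close to the detection limit, with 23 listed and 18 in the table. Of these 18, 4 were detected, Snmp1 at 5.45, Ir25a at 4.21, Orco at 2.98 and Ir76b at 2.75 CPM. Orco, the co-receptor of all odorant receptors, had 20, 29 and 27 counts. Among symbols beginning with Or, 1 of 34 was detected, Or63a, among those beginning with Ir, 3 of 36, and among those beginning with Gr, 2 of 51. Of the 8 hearing-organ genes, nompA and Dhc93AB were detected at 3.09 and 1.31 CPM. At these totals a receptor made in few neurons may give no read, so a value of 0 is not an absence.

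Of the 35 antennal genes of 1 CPM or more, 17 were lowest in control 2 and 14 in control 1. Over all 9155 symbols of that level, 2769 were lowest in control 2 and 3329 in control 1. Control 3 was highest in 25 of the 35, against 3287 of the 9155 symbols. The median log2 difference from the other libraries was 0.23 for control 3 and -0.13 for control 2. For control 2 it was -0.05 over members of 5 CPM or more. In 6 genes, Os-C from outside the antennal list among them, control 2 was far below the others. The binding protein gene Obp83a had 100, 11 and 209 counts (13.6, 1.18 and 24.2 CPM), a10, a chemosensory protein, had 80, 6 and 142 counts, and Os-C had 55, 0 and 49 counts. Obp83b, Obp19a and a5 were also lowest in control 2, and the 6 genes summed to 48.1, 3.54 and 64.3 CPM in controls 1, 2 and 3. The 6 were picked after their values were seen. The 18 receptors and co-receptors in the table summed to 17.5, 19.9 and 21.1 CPM. The 8 hearing-organ genes summed to 8.27, 5.46 and 7.30 CPM, and all symbols beginning with Ir to 16.4, 11.9 and 18.3 CPM. Control 2 was thus lowest in the hearing-organ and Ir sums and not in the receptor sum, and how much of the antenna each library held was not tested.

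Defence peptides were abundant and had the highest median CV among the lists described here. Of the 19 members of 1 CPM or more, 17 were lowest in control 2, by amounts that differed between them. Over all 9155 symbols of that level, 2769 were lowest in control 2. The immune-induced peptide genes IM4, IM14 and IM2 differed little, with 6407, 5853 and 6343 CPM for IM4, 2563, 2387 and 2598 CPM for IM14 and 2241, 2069.8 and 2135 CPM for IM2. Drs, the antifungal peptide drosomycin, was also flat at 135, 130.5 and 136 CPM. Antibacterial peptides known as targets of the Imd pathway were low in control 2, with 557, 114 and 382 CPM for Dro, 94.2, 21.1 and 143 CPM for DptB and 28.2, 8.14 and 35.3 CPM for AttB. Mtk had 397, 137 and 480.1 CPM. Of 10 peptides of the diptericin, attacin, drosocin, cecropin and metchnikowin kinds, all 10 were lowest in control 2, with sums of 1475, 605 and 1667 CPM, a grouping made after the values were seen. The 8 peptides Drs, Def, IM1, IM2, IM3, IM4, IM14 and IM23, from the same grouping, summed to 13864, 12832 and 13725 CPM, and 6 of them were lowest in control 2. Most of this sum came from IM4, IM14 and IM2, so it does not describe the less abundant members. IM18, an immune-induced peptide outside both groups, had 255, 110.0 and 307 CPM, lowest in control 2 like the antibacterial peptides. The median CV of the immune list was 18.4% over 15 genes of 10 CPM or more, against 7.06% for all symbols of that level.

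Housekeeping genes were high. The 87 cytosolic ribosomal protein symbols took 24.5% ± 0.677 of all counts (SD, n = 3), with a median of 2842 CPM. Of the 83 at 1 CPM or more, 82 were lowest in control 1, against 3329 of all 9155 symbols of that level. The median log2 difference of control 1 from the other libraries was -0.18. With raw library totals 78 of the 83 were lowest there. Controls 1, 2 and 3 also gave 16.8%, 19.1% and 19.3% of counts to their 10 most abundant symbols, and the part of this in the ribosomal difference was not tested. Respiratory chain genes had a median of 685 CPM, with sesB, the ADP/ATP carrier, at 2190.1, 2286 and 2064 CPM, and glycolytic genes had a median of 722 CPM, with Gapdh1 at 1840.2, 2003 and 2057 CPM. Lactate dehydrogenase, ImpL3 (now Ldh), was the lowest of the 13 glycolytic genes at 23.4 CPM. Of the 79 cytochrome P450 symbols 61 were detected, led by Cyp6d5 at 364 CPM, and of the 35 glutathione transferases 29, led by GstE12 at 1015 CPM. Blood cell genes were present in 13 of 14 cases, with the crystal cell enzyme PPO2 at 234, 259 and 296 CPM and Hml at 89.2, 90.7 and 99.5 CPM.

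The spread between libraries was small for most genes. Over the 6086 symbols with a mean of 10 CPM or more, the median CV was 7.06%, with quartiles of 4.25% and 10.6%, where counting error alone would give a median of 5.33% for 3 values. Levels between 100 and 1000 CPM had the smallest median CV, 4.27%, against 2.07% from counting. At 1000 CPM or more the median was 6.01% against 0.576%, so in the most abundant genes nearly all of the spread was beyond counting. In 5921 symbols (97.3%) the highest library was less than 1.5 times the lowest. The 10 genes of 100 CPM or more with the lowest CV were CG43114, alpha-Spec, trp, und, RNASEK, ND-B17.2, Bsg, porin, CG12163 and CG16758, and the light-gated channel trp was the only one of them from a tissue list. Each had a CV under its own counting error, such as 0.25% against 2.25% for CG43114 and 0.349% against 1.03% for trp. Values so low with 3 libraries do not mark these genes as unusually steady.

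**Figure D4:**
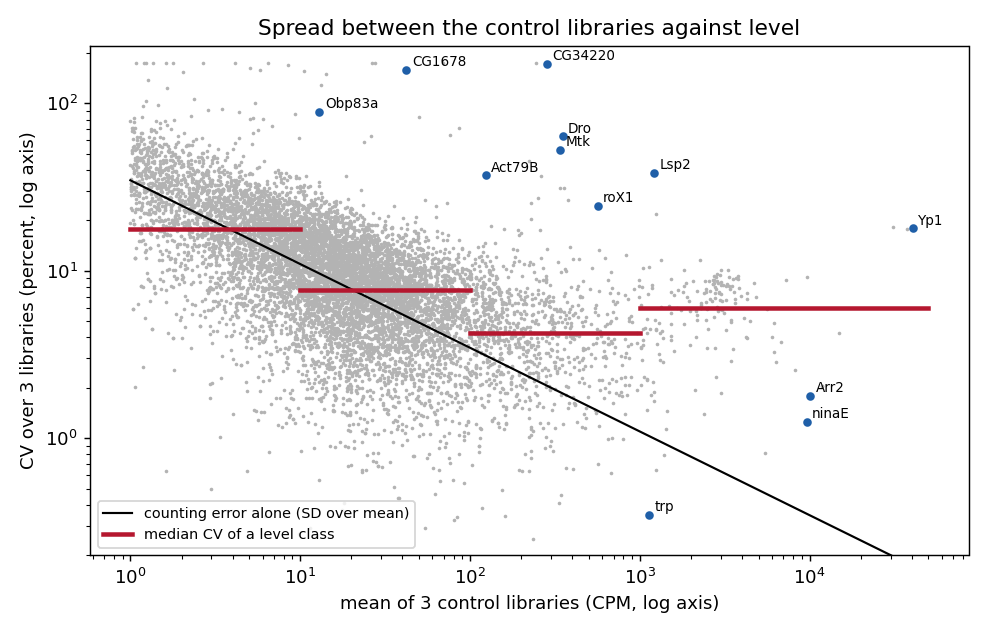
The CV over the 3 control libraries in percent against mean level in CPM, both on log axes, for symbols of 1 CPM or more; red bars are the median CV of each level class and the black curve is the SD over mean that counting alone would give. Red bars fall to 4.27% between 100 and 1000 CPM, the yolk protein Yp1 lies at 17.9%, and CG34220 and CG1678 lie at 172% and 159%.

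In 20 of the 6086 symbols the highest library was over 2 times the lowest, and in 15 it was over 4 times. Without control 2 the number over 2 times was 8. The highest of these belonged to control 3. CG34220 had 1.22, 1.18 and 852 CPM, a ratio of 723, and CG14645 had 5, 0 and 6284 counts. CG34324, CG3906 and the mucin gene Muc68D had 0 counts in controls 1 and 2 and 1806, 715 and 685 counts in control 3. They were thus detectable in a single library, where 20 symbols over 3-fold apart from both others summed to 2074 CPM, against 4.47 and 3.64 CPM in controls 1 and 2. The set held Cht8, a chitinase, with 1, 5 and 125 counts, and the peptide gene Akh, with 0.136, 0.857 and 3.94 CPM.

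Control 2 had its own set of high symbols. CG1678 (now whe) had 3.93, 119 and 3.13 CPM, CG16826 had 2.58, 38.7 and 1.27 CPM, and CG45080 had 4.07, 33 and 2.66 CPM. With CG13947, CG34212 and CheB38c these 6 symbols summed to 13.2, 239 and 8.81 CPM, high in control 2 and no other library. The 19 symbols low in control 2 summed to 794, 159 and 707 CPM, and they included the antibacterial peptides and antennal carriers given above, and CR44404 (now IBIN), an infection-induced gene. Control 1 had 5 symbols of each kind, and control 3 had 12 low ones. The remaining wide genes of 10 CPM or more were lcs with 41.1, 133 and 54.9 CPM, CG13428 with 17.1, 26.1 and 12.6 CPM, and CR45045, Dpt, and the IM18 and Act79B given above. The 3-fold rule was chosen after the values were seen.

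**Figure D5:**
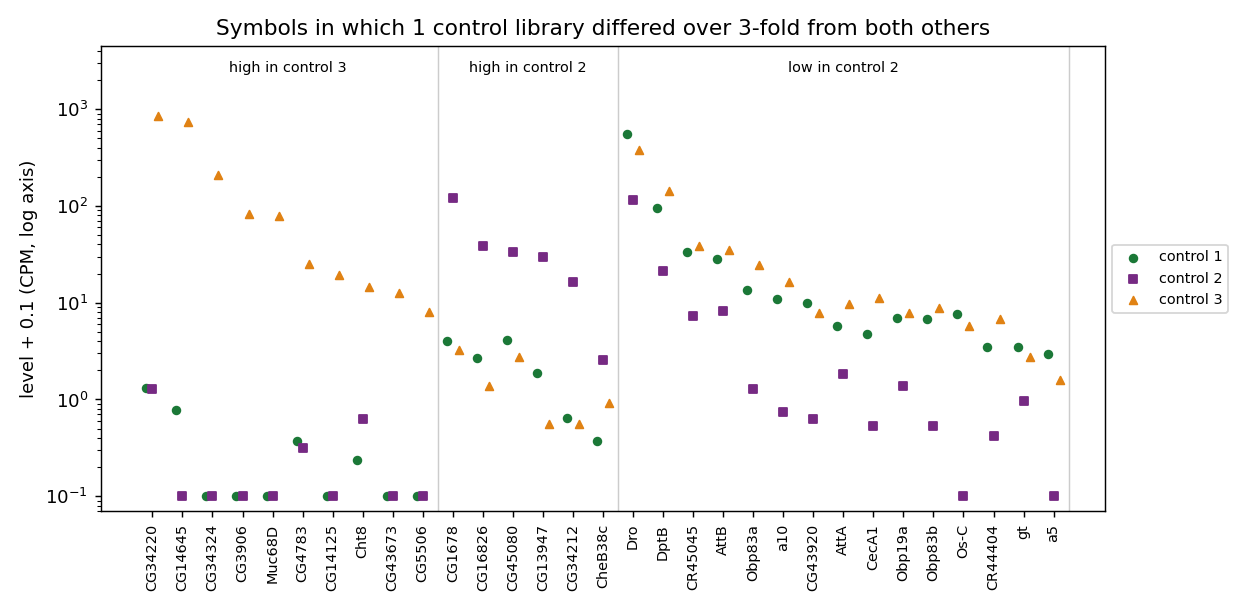
Levels in CPM plus 0.1 on a log axis of symbols in which 1 control library differed over 3-fold from both others, with a marker for each library. At left the control 3 markers of CG34220 and CG14645 lie at 852 and 728 CPM with the other libraries at 1.22 CPM or below, and at right the control 2 markers of Dro, DptB and the antennal binding proteins lie under both other libraries.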

How the data were processed

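The authors deposited 1 table of raw counts per gene symbol, and per the submitters' processing notes it came from STAR and the genome build dm3, with no version given. The counting program, annotation, use of strand and molecular identifiers are not given in the sources used here, so reads of overlapping, antisense or near-identical genes may be shared. Libraries followed a 3′ protocol after RNAtag-Seq on TRI Reagent RNA, per the labels' protocols. Columns were matched to samples by name. Among symbols above a minimum summed count over the 3 controls, 133 shared all counts with another.

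TMM factors (edgeR 4.0.16, R 4.3.3) for the 3 control libraries were 1.05, 0.989 and 0.962. CPM are counts over scaled totals, and a gene was detected at 1 CPM or more in all 3 libraries. Values are mean ± SD, with the CV and the highest over the lowest library, where a library under 3 counts was set to 3. The dispersion of an intercept-only model gave a common biological CV of 8.70%, and the script was tested on simulated data. With 1 group and no comparison, no p-value was computed. Pairs of libraries correlated at 0.990 to 0.991 (Pearson r of log2 CPM across genes, which are not independent replicates), and their counts differed beyond sampling noise, with chi-square 5.97 to 9.38 times its degrees of freedom. Counting floors cover counting error only.

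Of the symbols, 10981 equalled a RefSeq symbol of the Release 6 assembly, 2704 matched a synonym and 96 matched neither. Coding lengths are the longest in Ensembl BDGP6.54. No coordinates are printed, since these builds are later than dm3. Named genes were the 25 most abundant, the 3 highest of each role, all opsins, undetected members, up to 5 of other lists, the 20 with the widest ratio and the 10 with the lowest CV, and genes outside this rule were chosen after their values were seen. Members and lists were chosen with earlier results of these data known. Alternatives were DESeq2 1.42.0 size factors, raw totals, each library left out, other level limits, coding length, and totals and lists without the 10 most abundant symbols.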

Additional observations from a re-analysis of the deposited data

How the results depend on the processing

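No paired analysis was possible because no groups are compared. The number of symbols at 1 CPM or more in all 3 libraries, 8826, was 8826 with DESeq2 size factors and with raw totals, 9278 at 0.5 CPM, 10288 at 1 count, and 8914 to 8928 without 1 library. Of 100 alternative values of sums, medians and differences, 72 stayed within 1 SD of the libraries and 28 moved beyond it, and of 14 alternative counts of symbols 11 stayed within 1.5 times the count reported. A single sign changed: the median log2 difference of control 3 in the muscle list was -0.02 over all libraries and 0.02 without control 2. Per kilobase of coding length the median level was 1.76 in antenna, 11.1 in brain, 49.3 in eye and 116 in fat body. Over detected members only it was 27.5 CPM in antenna, 33 in brain, 108 in eye, 251 in fat body and 127 in muscle, so muscle passed eye in both. Leaving out 1 library gave medians of 30.4 to 32.9 CPM in brain and 87.2 to 90.7 CPM in eye, and sums of 4962 to 5389.9 CPM in brain and 43463 to 45759 CPM in eye. The 10 most abundant symbols were also left out of both the totals and the lists. This removed Yp1, Yp2 and Yp3 from the fat body list and Arr2 and ninaE from the eye list. The sums were then 12152 CPM in antenna, 6386 in brain, 30564 in eye, 20094 in fat body and 11907 in muscle. The median CV was 7.77% with raw totals, 9.09% from 1 CPM, 5.03% from 50 CPM and 5.32% to 6.27% without 1 library. The number of symbols over 2 times apart was 399 from 1 CPM, 10 from 50 CPM and 8 to 21 without 1 library. Fewer libraries or other level limits change which symbols enter, and no other cause was tested. With raw totals the median log2 difference of control 1 from the other libraries, over symbols of 10 CPM or more, was 0.09 in place of -0.01. The highest library then changed for most eye genes, 39 of 55 being highest in control 1 against 12 of 55, and muscle genes were lowest in control 3 in 28 of 38 cases against 13 of 38. The comparisons of control 1 by list, and leaving out libraries there, were chosen after seeing the data. Depth limits receptors and other genes under 10 CPM, where 1 count is a visible step.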

Other observations

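Surface and stress genes made smaller sets. Of 57 symbols of the Cpr family of cuticle proteins 24 were detected, led by Cpr72Ec with 435, 469 and 476 CPM and Cpr65Au with 462, 455 and 452 CPM in controls 1, 2 and 3. The pigmentation genes e and b had means of 92.0 and 98.6 CPM. Of 16 heat shock symbols 9 were detected, with Hsp83, the fly Hsp90, at 237, 244 and 249 CPM and the small heat shock genes Hsp26 and Hsp23 at 12.3 and 11.5 CPM. The 73 mitochondrial ribosomal protein genes were all detected at a median of 29.0 CPM, and 32 of 45 proteasome symbols were, with Prosbeta5 highest at 111 CPM.

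The gene row, a zinc-finger chromatin protein, had 14.8, 15.4 and 12.5 CPM, and its listed partners HP1c and woc had 24.5 and 24.4 CPM. Of the genes of sex determination and dosage compensation all 10 were detected, with Sxl at 68.9, 63.3 and 59.7 CPM and dsx at 8, 12.7 and 11.7 CPM. The X chromosome carried 24.2% of counts and chromosome 4 carried 0.874%. The X share includes the X-linked genes Yp1, Yp2 and Yp3, with means of 4.03%, 3.72% and 3.07% of counts. It also includes the noncoding RNAs MRE16 and CR40469, with 0.967% and 0.676%. Of 17 taste genes 2 were detected, and the amylase gene Amy-d had 32.1 CPM.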
